A study of Homo sapiens with 6 samples.

Results

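The genes described here are the clustered replication-dependent histone genes, chosen as the rows of the deposited table whose symbol starts with HIST1H, HIST2H, HIST3H or HIST4H, leaving out 7 rows whose symbol ends in PS plus digits. The rule gave 64 genes of 30345 rows, with 6 in class H1, 12 in H2A, 20 in H2B, 14 in H3 and 12 in H4. By cluster, 46 belonged to HIST1, 15 to HIST2, 2 to HIST3 and 1 to HIST4. Histone cluster genes without such a row are not covered, so totals and shares below are of these members only. RefSeq typed 59 of the members as protein-coding and 5 as pseudogenes, all of the latter in HIST2. Polysome sequencing (polysome-seq), which reads RNA from sucrose gradient fractions that hold multiple ribosomes, was run on a clear cell renal cell carcinoma (ccRCC) line, OSRC-2 (OS-RC-2 in the labels), that lacks functional VHL. Cells were treated for 72 h with 2 µM PT2399, a HIF2 inhibitor (3 libraries), or with vehicle (3 libraries), and both groups share the VHL defect. Each value below is the authors' mean normalized count over all 6 libraries, so it mixes PT2399 and vehicle libraries, carries no SD, and cannot be assigned to either group. A comparison of PT2399 with vehicle was not made.

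Histones package DNA into nucleosomes: H2A, H2B, H3 and H4 form the core, and H1 is the linker histone bound where DNA enters and leaves it. The clustered genes are known to be transcribed mainly in S phase, and most of their mRNAs end in a conserved stem-loop instead of a poly(A) tail. The stem-loop is bound by SLBP, which acts in 3′-end processing, translation and decay of these mRNAs. The libraries were made from total RNA, so an mRNA without a tail could be read. In RNA pooled from a culture, fewer cells in S phase and less histone mRNA per cell cannot be told apart.

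The stem-loop is the sequence these genes share that the rule did not use. All 56 members with a GENCODE coding transcript held a match to the histone stem-loop consensus, and in 55 of them it lay 1 to 11 bases from the annotated 3′ end. Among 16674 canonical coding transcripts of genes in the table, 56 (0.336%) held a match in the last 100 bases. These were 55 members, all of the 56 but HIST2H2BE, and HIST2H3PS2, which the rule leaves out. The most abundant member of each class is shown with a second H4 member and the 2 members whose stem departs from the others, from GENCODE transcripts, 5′ to 3′, with the 16-base stem-loop in capitals.
HIST1H1C: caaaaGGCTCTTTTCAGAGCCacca
HIST2H2AA4: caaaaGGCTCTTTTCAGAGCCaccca
HIST2H2BF: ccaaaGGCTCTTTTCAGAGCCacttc
HIST2H3A: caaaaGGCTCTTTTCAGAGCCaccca
HIST2H4A: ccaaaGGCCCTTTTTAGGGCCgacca
HIST1H4H: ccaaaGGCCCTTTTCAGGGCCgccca
HIST1H2AG: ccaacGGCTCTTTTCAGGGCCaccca
HIST1H2AK: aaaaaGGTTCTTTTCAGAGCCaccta

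The stem differed by class. All 11 H4 members with a transcript had the arms GGCCC and GGGCC, and none of the 45 members of the other classes did. Of those 45, 43 had the arms GGCTC and GAGCC, and the 2 exceptions were the H2A genes HIST1H2AG and HIST1H2AK shown above. The most frequent core, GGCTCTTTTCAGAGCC, was found in 4 H1, 8 H2A, 9 H2B and 10 H3 members. A match is a description of the letters and not a measure of SLBP binding.

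Most members were present in polysome RNA. A mean of at least 10 normalized counts was reached by 56 of 64 members (87.5%), against 54.4% of all rows. All rows include many without a coding length, and the share among rows with one is not given here. A mean of 100 was reached by 52 members, and the share of all rows at that level is not given here. Per kb of coding sequence, the median member had a mean of 1915 normalized counts, against 445 over the 16639 rows with a coding length. This put the median member at percentile 77.5, and 45 of 56 members with a coding length were above the median row. Histone coding sequences are short, and without division by length the median percentile was 51.7 among rows with a coding length and 72.3 among all rows. Together the members held 64294 normalized counts, or 0.142% of the sum over all rows. A group of 11 members made up 50% of that sum.

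**Figure D1:**
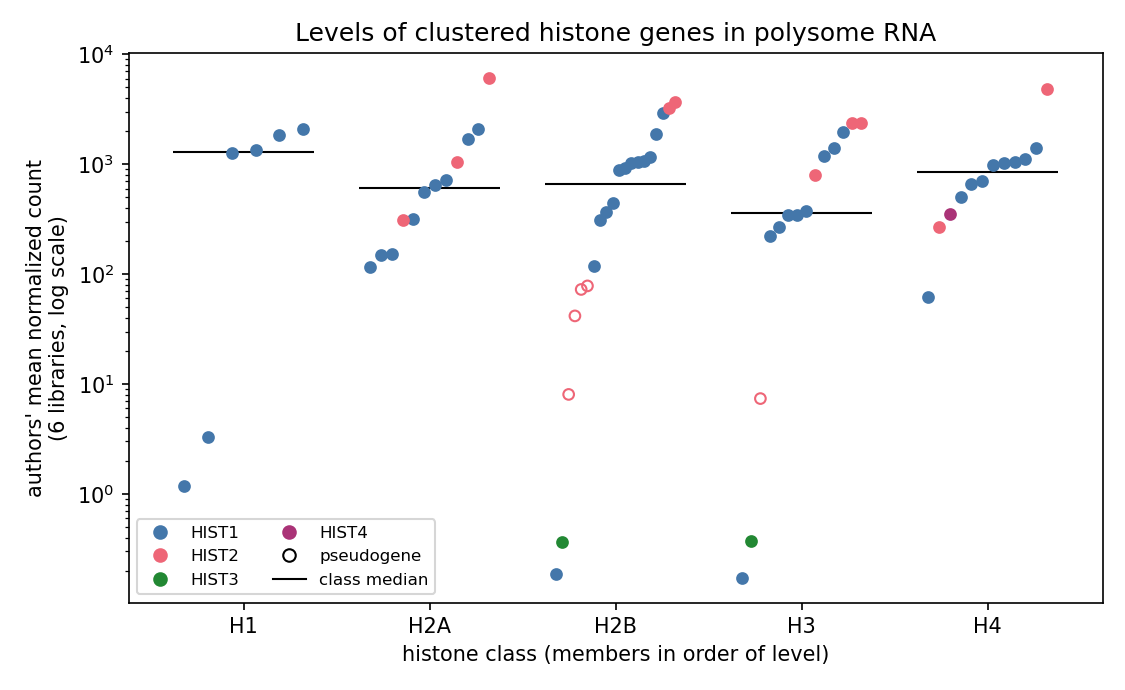
Mean normalized count of each of the 64 members over the 6 libraries (log axis, not divided by length), ordered by level within each histone class and coloured by cluster, with open circles for pseudogenes and a line at the class median. Each class spans a wide range, from 61.3 to 4808 in H4 and from 0.173 to 2365 in H3, and 6 protein-coding members lie below 10.

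The class totals of the core histones lay close to each other per kb of coding sequence. H2B held 28.5% of the members' summed level, H4 24.4%, H2A 22.7% and H3 18.1%. H1, the linker histone, held 6.4%, and 10.2% of the sum not divided by length. Set against H4, the summed level per kb was 1.17 for H2B, 0.928 for H2A, 0.740 for H3 and 0.260 for H1. These shares rest on 56 members, because 5 pseudogenes and 3 protein-coding genes had no coding length. Those 3 were HIST1H2BF with 1151 normalized counts, HIST1H2BG with 1014 and HIST1H4B with 1015. Near-identical copies share reads, so the split between genes of a class is less certain than the class total. The lead of H2B also depends on the length scale. Per kb of transcript, H2B held 25.5% and H4 25.1%.

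**Figure D2:**
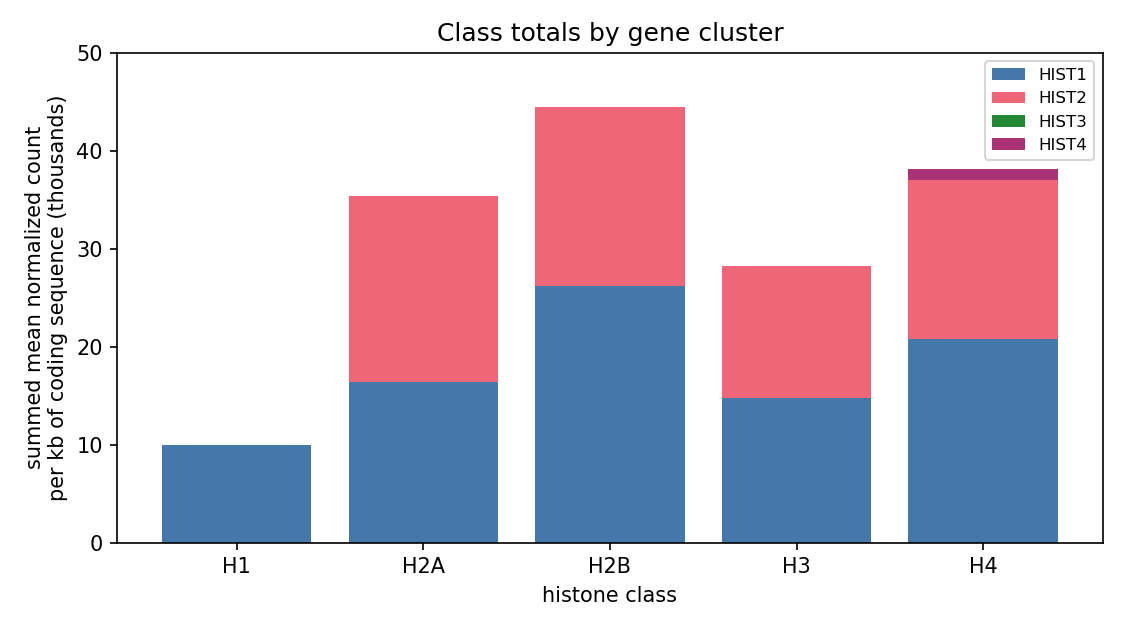
Summed mean normalized count per kb of coding sequence (in units of 1000, bars from 0) for each histone class, stacked by gene cluster, over the 56 members with a coding length. The H2B bar is the highest and the H1 bar the lowest, and HIST1 and HIST2 both contribute to every core class while H1 comes from HIST1.

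HIST1 and HIST2 together held nearly the whole level of the members. HIST1, with 43 members on this scale, held 56.4% of the summed level per kb of coding sequence, and HIST2, with 10, held 42.9%. The median per kb was 1818 in HIST1 and 5753 in HIST2, the latter being the value shared by HIST2H3A and HIST2H3C, whose reads cannot be told apart. Over all members, pseudogenes included, the median was 707 normalized counts in HIST1 and 799 in HIST2, not divided by length. HIST4H4, an H4 gene on chromosome 12 (chr12:14770720-14771131, GRCh38), had 1122 per kb and 0.718% of the sum. Both HIST3 members, an H2B and an H3 gene, were near 0. No gene of another class in HIST3 was among the members.

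H1 was encoded in polysome RNA by 4 of its 6 genes. HIST1H1C, the most abundant, had 2104 normalized counts (3277 per kb of coding sequence) and lies at chr6:26055740-26056470 (GRCh38). HIST1H1E had 1835 normalized counts (2781 per kb), HIST1H1B 1345 (1974 per kb) and HIST1H1D 1255 (1885 per kb). These 4 genes encode linker histones known from somatic cells. HIST1H1A, also a somatic linker histone, had 1.18 normalized counts. HIST1H1T, which encodes the testis linker histone, had 3.28 normalized counts.

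Among H2A genes, all 12 exceeded 100 normalized counts, and 1 led the class. HIST2H2AA4 (chr1:149851061-149851594, GRCh38) had 6079 normalized counts, 15468 per kb of coding sequence, and 43.8% of the counts of its class. HIST1H2AG followed with 5322 per kb (2091 normalized counts), HIST1H2AC with 4325 per kb (1699.9) and HIST2H2AC with 2707 per kb (1056). HIST2H2AB had 780.2 per kb (307). The lowest member, HIST1H2AK, had 298 per kb (117). H2AC18, another H2A gene of the HIST2 cluster, was not analysed here, and whether it shares reads with HIST2H2AA4 was not tested. The 6079 normalized counts may therefore not come from HIST2H2AA4 alone. HIST1H2AG and HIST1H2AK encode the same translated sequence as HIST1H2AM and HIST1H2AL, and these 4 genes held 22.9% of the H2A counts.

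The H2B class had the most members, 2 of the leading ones in HIST2 and 2 in HIST1. HIST2H2BF had 3712 normalized counts (9742 per kb of coding sequence), HIST2H2BE 3255 (8545 per kb), HIST1H2BC 2917 (7657 per kb) and HIST1H2BD 1899 (4985 per kb). At the other end HIST1H2BM had 0.185 normalized counts and HIST3H2BB 0.367. The values that recur most among the lowest means ran from 0.140 to 0.213 and were taken as a lone read in 1 library. HIST1H2BM lay in this range. The 4 HIST2 H2B pseudogenes had 78.0 (HIST2H2BC), 72.4 (HIST2H2BB), 41.6 (HIST2H2BA) and 8.03 (HIST2H2BD) normalized counts, below every protein-coding H2B member but HIST1H2BM and HIST3H2BB. The symbol HIST2H2BD is an older name of more than 1 RefSeq pseudogene, so its position is not given.

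Some members have a further annotated coding transcript that does not end at the stem-loop, or none that does. There were 11 such members, 8 of them H2B genes. The leading H2B genes HIST2H2BF, HIST2H2BE, HIST1H2BC and HIST1H2BD were all among these 8. The 8 H2B genes had a median of 1489 normalized counts (0.367 to 3712). The 6 other H2B genes with a coding transcript had a median of 403 (0.185 to 1053). Levels per kb of coding sequence, and the H2B share on that scale, do not account for bases outside the coding sequence. For HIST2H2BE the annotated transcript is 2224 bases long and the stem-loop lies 1729 bases from its 3′ end. Its level was 8545 per kb of coding sequence but 1464 per kb of transcript. Which form the reads came from was not tested.

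H3 genes encode few distinct products. The 13 H3 members with a transcript had 3 translated sequences, of which 1 came from all 9 HIST1 members and held 52.3% of the counts of its class. Another came from HIST2H3A, HIST2H3C and HIST2H3D and held 47.6%. The third was that of HIST3H3, which encodes a testis H3, at 0.370 normalized counts. HIST2H3A and HIST2H3C (chr1:149852608-149853125 and chr1:149840687-149841208, GRCh38) were each listed at 2365 normalized counts (5753 per kb of coding sequence). Their coding sequences of 411 bases are the same and the shorter transcript lies whole within the longer, so the reads of the pair cannot be told apart. HIST1H3C had 1946 normalized counts (4735 per kb), HIST1H3B 1396 (3397 per kb) and HIST2H3D 799 (1944 per kb). The lowest was HIST1H3H at 0.173 normalized counts, and the pseudogene HIST2H3DP1 had 7.36.

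The H4 genes encode a single protein. The 11 H4 members with a transcript had 10 distinct coding sequences and 1 translated sequence, with pairwise identity of the coding sequences from 79.2% to 100.0% and a median of 83.7%. HIST2H4A (chr1:149832657-149833052, GRCh38) had 4808 normalized counts, 15409.6 per kb of coding sequence, and 37.2% of the H4 counts. HIST2H4B was listed at 269 normalized counts, 17.9 times less, although its transcript of 396 bases is identical to that of HIST2H4A. The table's division of reads between these 2 genes therefore cannot be read as a difference between them. HIST1H4H had 1392 normalized counts (4461 per kb), HIST1H4E 1122 (3596 per kb) and HIST1H4C 1052 (3372 per kb). HIST1H4A was the lowest H4 member at 61.3 normalized counts (197 per kb).

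The protein-coding members near 0 held a stem-loop as the abundant ones did, but its letters were not always the same. Of 8 members under 10 normalized counts, 2 were pseudogenes and 6 protein-coding, and all 6 of the latter held a stem-loop. HIST1H1A, HIST1H1T and HIST3H3 shared a loop that differs from that of HIST2H3A. The 9 members with that loop had a median of 309.8 normalized counts (0.370 to 2917). The 40 members with the loop of HIST2H3A had a median of 757 (0.173 to 6079). Whether loop and level are related was not tested. The stem-loop cores of HIST1H2BM and HIST1H3H are those of HIST2H2BF and HIST2H3A.
HIST1H2BM: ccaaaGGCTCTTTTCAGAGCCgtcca
HIST1H3H: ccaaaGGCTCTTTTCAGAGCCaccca

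Promoters held a pair of well-known elements at different rates by class. The TATA box is known to position the start of transcription, and CCAAT is the motif of the factor NF-Y. TATAAA and CCAAT were searched separately on both strands of the RefSeq GRCh38.p14 promoter windows, from 250 bases before to 50 after the start. Only these exact letters were counted, so a window without TATAAA can still hold a variant of the TATA box. Windows overlap in 7 pairs of H2A and H2B genes, whose starts lie 194 to 248 bases apart. There, 1 motif can count for both genes. Of 54 members with a window, 35 (64.8%) held TATAAA, against 12.0% of 27305 promoters of all genes. CCAAT was found in 46 (85.2%), against 35.7% of all promoters. All 44 members of H1, H2A, H2B and H3 with a window held CCAAT, and 2 of 10 H4 members did, HIST1H4I and HIST1H4L. TATAAA ranged from 50.0% of members in H1 and in H4 to 81.8% in H3.

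The 110 bases before the start are shown for an H2A, an H3 and an H4 gene, each the most abundant of its class. They were picked because they show this difference. The most abundant H1 and H2B genes, HIST1H1C and HIST2H2BF, held CCAAT but no exact TATAAA in their windows. In the 110 bases before the start HIST1H1C held TATATATA and HIST2H2BF held TATAAG, similar letters that the search did not count. Capitals mark TATAAA or CCAAT on either strand. HIST2H2AA4 lies on the plus strand (chr1:149850951-149851060), as do HIST2H3A (chr1:149852498-149852607) and HIST2H4A (chr1:149832547-149832656).
HIST2H2AA4: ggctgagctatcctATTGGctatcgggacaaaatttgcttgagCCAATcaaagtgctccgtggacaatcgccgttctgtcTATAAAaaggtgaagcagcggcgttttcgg
HIST2H3A: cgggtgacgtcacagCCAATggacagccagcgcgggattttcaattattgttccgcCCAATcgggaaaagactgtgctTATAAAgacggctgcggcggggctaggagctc
HIST2H4A: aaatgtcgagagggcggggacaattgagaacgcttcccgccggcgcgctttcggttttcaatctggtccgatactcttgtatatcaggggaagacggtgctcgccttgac

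HIST2H2AA4 held TATAAA 30 bases before the start and HIST2H3A 32 bases before it, while neither motif was present in the HIST2H4A window. Both motifs were found in members of low and of high level. CCAAT was in all 6 windows of members under 10 normalized counts and TATAAA in 4 of them, and of 25 windows of members with at least 1000 normalized counts 21 held CCAAT and 15 held TATAAA.

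HIST1 spans 1.88 Mb of chromosome 6. Cut at the largest gap, of 847 kb, it falls into a first block of 29 members (chr6:26017032-26285534) and a second of 17 (chr6:27132316-27893891). A further gap lies within the second block, where no member starts between 1130.1 and 1793.0 kb from the first HIST1 member. The first block held 68.4% of the HIST1 level per kb of coding sequence, with a median of 2223 per kb over 26 members, and the second block had a median of 1445 per kb over 17. Low and high members stood side by side in both. In the second block HIST1H3H (chr6:27810051-27810536) and HIST1H2BM (chr6:27815022-27815489) had 0.420 and 0.486 per kb, while the next member, HIST1H4J (chr6:27824092-27824480), had 2241 per kb.

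**Figure D3:**
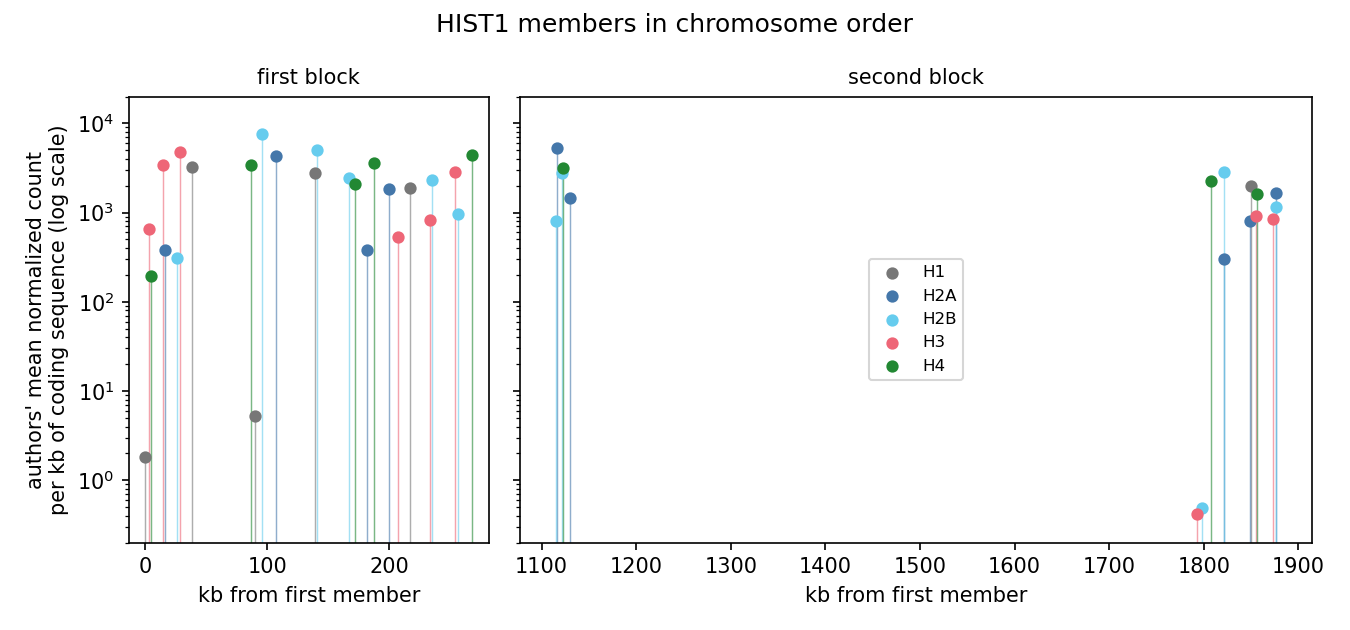
Mean normalized count per kb of coding sequence (log axis) of 43 HIST1 members against distance in kb from the first member, in 2 panels for the 2 blocks and coloured by class. High members lie along both blocks, and the 4 members near 0 are HIST1H1A and HIST1H1T in the first block and HIST1H3H and HIST1H2BM in the second.

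Some H2A and H2B genes start back to back. Starts were taken from the promoter windows of 54 members, so a pair with a member that lacks a window could not be found. With starts at most 500 bases apart on opposite strands, 7 such pairs were found, each of an H2A with an H2B gene and with 194 to 248 bases between starts. Both genes had a level per kb of coding sequence in 5 of them, and the higher exceeded the lower by 1.43-fold to 9.50-fold, with a median of 3.16-fold. H2B was the higher in 3 of the 5. Per kb of transcript, a scale added after seeing the data, H2B was the higher in 2 of the 5 and the ratios ran from 1.41-fold to 8.43-fold, with a median of 1.94-fold. The pair that turned was HIST2H2BE and HIST2H2AC, with 8545 and 2707 per kb of coding sequence but 1464 and 2137 per kb of transcript. HIST1H2BN had 2833 per kb beside HIST1H2AK at 298, whereas HIST1H2AG had 5322 per kb beside HIST1H2BJ at 813. HIST1H2AM and HIST1H2BO were the closest, with 1655 and 1161 per kb. With no values of single libraries, the spread behind these ratios is unknown.

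Outside the clusters, the replication-independent histone genes were mostly present too. Most of them are known to give mRNAs with poly(A) tails and to be expressed outside S phase as well. The 12 on the list belong to H1, H2A and H3, and 10 reached 10 normalized counts, against 54.4% of all rows. The list summed to 134119 per kb of coding sequence. The clustered members summed to 156225 per kb, but this includes 44512 from H2B and 38149 from H4, classes with no gene on the list. H3F3B and H3F3A, which encode H3.3, had 59806 and 24753 per kb. Clustered H3 genes summed to 28245 per kb, or 0.329 of the total of the 4 listed H3 variant genes. For H2A the clustered sum was 0.844 of that of the 6 listed variant genes, led by H2AFZ (15032 per kb) and H2AFV (14941 per kb). For H1 it was 1.55 times that of H1F0 (5202 per kb) and H1FX (1216 per kb). These ratios use coding length only. The listed genes were not compared per kb of transcript, so untranslated bases are not accounted for.

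The listed genes that make, translate and degrade histone mRNA were all present. All 11 listed genes of histone transcription and 3′ processing reached 10 normalized counts, from 359 for HINFP, an activator of H4 genes, to 4959 for CPSF2, a subunit of the cleavage complex. SLBP had 1994 normalized counts (2452 per kb of coding sequence), and NPAT, the coactivator of histone loci, 1582 (369 per kb). All 6 listed genes of histone mRNA translation and decay also reached 10 normalized counts. Both counts stand against 54.4% of all rows, coding or not. LSM1 had 2748 per kb, the exonuclease gene ERI1 1593 and the helicase gene UPF1 783.

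Markers of the labelled cell type were present, as were some genes listed as markers of other cells. All 7 ccRCC markers reached 10 normalized counts (258 to 170524, CA9 the lowest and VIM the highest), as did 54.4% of all rows. Of 6 measured markers of blood, endothelium and fibroblasts, PTPRC, CDH5 and DCN lay under 2 normalized counts, PECAM1 had 13.2, COL1A1 209 and CD68 3555. The culture was of the OSRC-2 line, which the paper reports as authenticated by short tandem repeat profiling. Which cells these reads came from was not tested. Relative depth, as size factors recovered from 1307 genes taken to hold a lone read, ran from 0.782 to 1.19 over the 6 libraries.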

How the data were processed

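The labels gave each library's group. The dose printed is 2 µM, from the paper and the treatment protocol, although a label reads 2 mM. Per the labels and methods, cells were lysed with cycloheximide, gradient fractions past the monosome peak were combined, and paired-end libraries were made with a stranded total RNA kit. Per the submitters' processing notes, the authors used DESeq2 1.22.1, Salmon, STAR 2.7.3a and bcl2fastq 2.18, with hg38 as build. Salmon's version and its strand setting were not given in the sources used here.

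The deposited mean over 6 libraries is a signal that the authors made by dividing counts by size factors. The table also holds the authors' fold change for PT2399 over vehicle with its standard error, test statistic, p-value and adjusted p-value; these are the authors' own comparison and were not used, so no test was made here. Total counts per library are unknown.

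Each mean was divided by the coding length of the GENCODE 44 canonical transcript (GRCh37 mapping, used by gene for lengths and transcript sequence only). Coordinates are from RefSeq GRCh38.p14. Members named are the 4 most abundant and the least abundant of each class, all of H1, HIST2, HIST3 and HIST4, and genes of the lists; HIST1H2AM, HIST1H2AL, HIST1H2BN, HIST1H2BJ, HIST1H2BO, HIST1H4I, HIST1H4J, HIST1H4L, HIST1H2BF, HIST1H2BG and HIST1H4B fall outside this rule and were picked with their values in view. Members and lists were chosen with earlier results of these data known. The recovery of size factors and the ranks were tested on simulated data. Scripts ran in Python 3.11.15 with biopython 1.88, matplotlib 3.10.9, numpy 2.4.6, pandas 2.3.3 and scipy 1.17.1. Alternatives were other minimum means, other length scales and leaving out members that share sequence.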

Additional observations from a re-analysis of the deposited data

How the results depend on the processing

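No paired analysis was possible because the values are means over all 6 libraries, and leaving out a replicate was not possible for the same reason; without values of single libraries, no difference between members has a replicate error. The number of members that reached 10 normalized counts stayed within 1.5 times of 56 under the other minimums, with PS symbols kept and without pseudogenes, as did the number of members that make up 50% of the sum under its 2 alternatives. The median percentile of members was 73.7 among rows with a mean of at least 10 and, without division by length, 51.7 among rows with a coding length and 72.3 among all rows, the last added after seeing the data. The class shares for H1, H2A, H2B, H3 and H4 were 10.2%, 21.6%, 30.1%, 18.1% and 20.1% without division by length, and 7.2%, 22.8%, 25.5%, 19.4% and 25.1% per kb of transcript. They were 7.7%, 27.6%, 34.7%, 13.0% and 17.0% without members that share a coding sequence, and 14.5%, 36.6%, 48.9%, 0.00132% and 0.0% without members that share a translated sequence, which leaves HIST3H3 in H3 and no gene in H4. The removal of pseudogenes, the class median length and the removal of HIST2H2AA4 and HIST2H4A were chosen after seeing the data. With the class median length for the 3 genes that lack one, the shares were 6.0%, 21.4%, 30.4%, 17.1% and 25.1%, and without HIST2H2AA4 and HIST2H4A 7.9%, 15.9%, 35.5%, 22.5% and 18.1%. For HIST1, HIST2 and HIST4 the cluster shares were 60.2%, 39.2% and 0.544% without division by length, 68.6%, 30.5% and 0.873% without members that share a coding sequence, and 45.6%, 54.4% and 0.0% without those that share a translated sequence. They were 58.8%, 40.5% and 0.679% with the class median length, and 70.3%, 28.8% and 0.895% without HIST2H2AA4 and HIST2H4A. HIST2 was above HIST1 in 1 of these settings, the one that removes every H4 gene and all but 1 H3 gene.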

Other observations

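Listed genes that carry newly made histones had a median level close to that of the clustered members. All 11 listed histone chaperone and import genes reached 10 normalized counts, against 54.4% of all rows. Their median was 2026 per kb of coding sequence, against 1915 for the clustered members. These levels use coding length only, so untranslated bases are not accounted for. NAP1L1, a chaperone of H2A and H2B, had 30822 per kb and RBBP4, which binds H4, had 9323. HAT1, which acetylates new H4, had 2026 per kb, ASF1A 2241 and ASF1B 1102. RBBP7 had 3918, NAP1L4 2375, NASP 1055, CHAF1B 666 and IPO4 491. The lowest was CHAF1A, the large subunit of the chromatin assembly factor CAF-1, at 321 per kb.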
